A study of Rattus norvegicus with 22 samples.

Results

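Descending commissural interneurons (dCINs, labelled CIN in the sample titles) and motor neurons (MNs) of the neonatal rat spinal cord were compared over the 10 arrays titled biological rep 3 to 7, 5 of dCINs and 5 of MNs, out of 22 arrays in the series. Both groups came from Wistar rats of postnatal day 0 to 4, 1 animal per array, and all neurons lay in the second lumbar segment of an isolated cord that was kept in Ringer's solution for 3 h while rhodamine dextran travelled back along the severed axons. For MNs the tracer was put on the cut ventral root of that segment, and for dCINs on a cut through one side of the cord further down. Labelled cells were laser microdissected from 10 µm sections, with 50 to 100 cells per dCIN sample and 55 to 115 per MN sample in these arrays, and the RNA was amplified in 2 rounds and hybridized to Affymetrix RN_U34 chips, which carry probe sets for genes of the nervous system. The tracer marks neurons by where their axon runs and not by transmitter, so the dCIN samples may hold several transmitter types, and a small pool of cut cells can carry RNA of neighbouring cells. A further 8 arrays (MIX) came from cells picked at random in the ventral horn and are given only beside the others.

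The arrays numbered 1 and 2 were left out of the comparison. Their deviations from the mean of their cell type went together over the probe sets, with correlations of 0.296 to 0.825 over the 6 pairs among these 4 arrays, and their MN samples held 250 and 230 cells. The labels name no batch, and the choice was made with earlier results of these data known. In arrays 3 to 7 the median signal was 43.5 to 48.6 for dCINs and 44.3 to 48 for MNs. The ratio of the 3' to the 5' Gapdh control probe set was 2.35 to 4.2 for dCINs and 2.19 to 3.62 for MNs there. In arrays 1 and 2 this ratio was 4.29 and 5.92 for dCINs and 22.7 and 17.6 for MNs. Signal here is the deposited intensity on a linear scale, on which 1050 probe sets ran from 1 to 8642 over all arrays. Differences are dCIN minus MN on the log2 scale with their standard error (SE), and a probe set was called where its limma p, adjusted for all 1050 tests by the method of Benjamini and Hochberg, was under 0.1. Signals of different probe sets are not on a common scale and are not set against each other. In such samples, fewer cells of a type and less RNA per cell cannot be told apart.

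MNs are the output cells of the spinal cord. They release acetylcholine onto skeletal muscle and send thick, neurofilament-rich axons out through the ventral roots. dCINs send their axons across the midline and down the cord, and they belong to the networks that alternate left and right steps during locomotion. Many commissural neurons are inhibitory and use GABA or glycine, and others use glutamate.

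The probe sets used for 4 marker genes separated both cell types in arrays 3 to 7. Slc18a3, the vesicular acetylcholine transporter, read 55.8, 92.1, 390, 839 and 345 in dCINs and 3940, 4680, 4730, 5210 and 4020 in MNs, a log2 difference of -4.32 (SE 0.60). Nefl, the neurofilament light chain, read 1760, 1510, 1880, 1550 and 1840 in dCINs and 3980, 3940, 3430, 3130 and 3570 in MNs, a difference of -1.08 (SE 0.11). Every MN array was above every dCIN array for both genes, and the dCIN arrays spread far more for Slc18a3 than for Nefl. The left-out arrays 1 and 2 read 1130 and 1100 in dCINs and 2690 and 3000 in MNs for Slc18a3, a smaller difference of -1.35. Slc32a1, the vesicular transporter for GABA and glycine, read 433, 589, 480, 762 and 488 in dCINs and 366, 113, 149, 48.2 and 35.2 in MNs, a difference of 2.42 (SE 0.51). Penk, the precursor of the enkephalin peptides, read 178, 156, 170, 218 and 136 in dCINs and 39.9, 48.4, 44.7, 40.4 and 24.9 in MNs, a difference of 2.13 (SE 0.18). Here every dCIN array was above every MN array, and MN array 3 came closest to the dCINs for Slc32a1. Other, dim probe sets of Slc18a3 and Slc32a1 did not separate the cell types. They gave differences of -0.18 (limma adjusted p = 0.542) and 0.02 (0.971), with overlapping groups. Each marker had a two-sided exact permutation p of 0.00794 over the 10 arrays, which is the smallest that 5 arrays against 5 allow, and 0.00794 after Benjamini-Hochberg adjustment over the 4. These genes are in the paper's own list of 50 differing probe sets, which was chosen on all 14 dCIN and MN arrays, these 10 included, so the p-values are not independent of that choice.

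**Figure D1:**
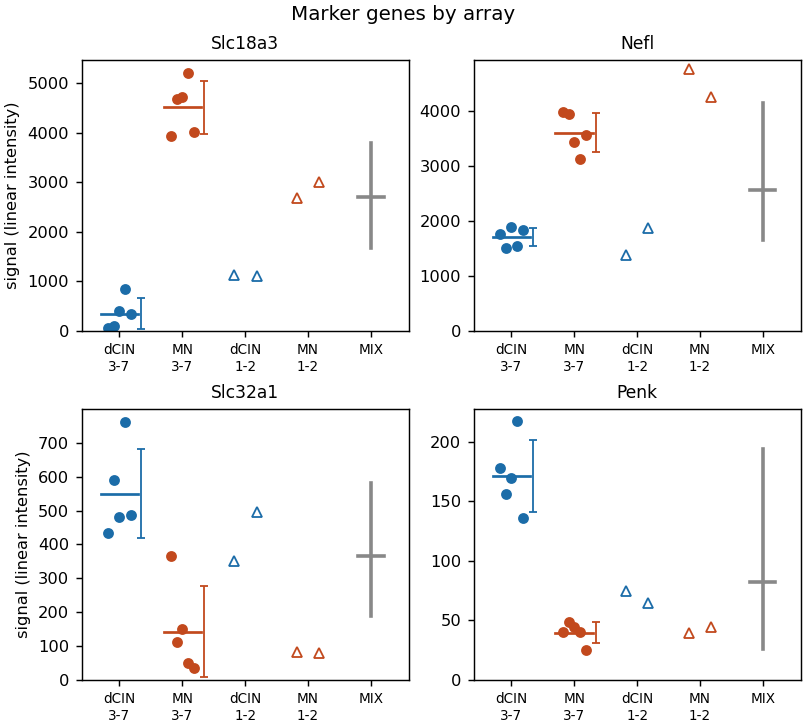
Signal (linear intensity) of 4 marker genes by array. Filled circles are arrays 3 to 7 with the mean as a line and ± 1 SD as a bar, open triangles are arrays 1 and 2, and the grey bar spans the lowest to the highest of 8 MIX arrays with a tick at the median. The MN circles lie at 3940 to 5210 for Slc18a3 and the dCIN circles at 55.8 to 839, and for Penk the triangles of dCIN arrays 1 and 2 stand at 74.8 and 64.7, between the dCIN and MN circles.

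The stretch of 250 bases before the gene start is shown for the 2 called genes with a RefSeq entry that had the largest differences in each direction, since these carry the separation of the cell types. They are Slc18a3 and Sncg (gamma-synuclein, a protein of sensory and motor axons), higher in MNs, and Hcrtr2 (a receptor for the orexin peptides) and Slc32a1, higher in dCINs. The sequences are from RefSeq, build GRCr8, each written along the strand of its gene. Slc18a3 is at chr16:7722815-7723064 (minus strand), Sncg at chr16:9711337-9711586 (minus strand), Hcrtr2 at chr8:85986406-85986655 (minus strand) and Slc32a1 at chr3:167686995-167687244 (plus strand). Capitals mark matches, on either strand, to the TATA box TATAAA, the CCAAT box CCAAT, the GC box GGGCGG or the cyclic AMP response element TGACGTCA, and none of these matches overlapped another.
Slc18a3: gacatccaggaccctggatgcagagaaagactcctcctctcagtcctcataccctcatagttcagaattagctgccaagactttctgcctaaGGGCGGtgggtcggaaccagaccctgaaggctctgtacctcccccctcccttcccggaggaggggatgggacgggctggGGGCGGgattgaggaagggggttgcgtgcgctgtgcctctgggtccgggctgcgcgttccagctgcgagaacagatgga
Sncg: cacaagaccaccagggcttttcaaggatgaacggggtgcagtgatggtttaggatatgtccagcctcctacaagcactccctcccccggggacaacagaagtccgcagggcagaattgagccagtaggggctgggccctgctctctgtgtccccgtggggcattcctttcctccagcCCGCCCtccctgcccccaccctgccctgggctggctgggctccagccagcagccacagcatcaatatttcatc
Hcrtr2: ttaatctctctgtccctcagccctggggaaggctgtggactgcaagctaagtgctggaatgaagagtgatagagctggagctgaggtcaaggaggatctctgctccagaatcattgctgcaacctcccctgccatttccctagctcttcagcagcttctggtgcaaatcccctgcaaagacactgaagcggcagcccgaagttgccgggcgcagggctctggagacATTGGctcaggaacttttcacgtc
Slc32a1: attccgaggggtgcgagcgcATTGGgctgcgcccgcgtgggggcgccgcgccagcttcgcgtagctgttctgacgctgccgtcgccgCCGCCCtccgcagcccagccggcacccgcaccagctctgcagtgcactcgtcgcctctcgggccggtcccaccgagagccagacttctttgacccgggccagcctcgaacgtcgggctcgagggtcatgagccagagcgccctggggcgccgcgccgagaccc
Of 49 gene names among the called probe sets, 35 had an entry. The GC box was in the window of 16 of 23 called genes higher in dCINs (69.6%) and 5 of 12 higher in MNs (41.7%), against 258 of 495 genes measured on the arrays (52.1%) and 32.4% of all 27457 RefSeq promoters. The windows of the measured genes had a median of 60.8% G and C bases, those of the called genes 66% (higher in dCINs) and 61.2% (higher in MNs), and all promoters 52%. The CCAAT box was in 7 of 23 and 3 of 12 windows, against 30.9% of the genes measured on the arrays and 34.3% of all promoters. TATAAA was in 2 of 23 and 0 of 12 windows, against 11.3% of the measured genes and 13.1% of all promoters. TGACGTCA was in 1 of 23 and 0 of 12, against 3.23% of the measured genes and 1.7% of all promoters. These counts describe letters in a window and were not tested.

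Of the 1050 probe sets, 57 were called between dCINs and MNs in arrays 3 to 7 (5.43%), 34 of them higher in dCINs (3.24%) and 23 higher in MNs (2.19%). With the threshold at 0.05 the count was 40, and an unadjusted p under 0.05 was reached by 132 (12.6%). Of the 50 probe sets of the published list, 40 were called and 10 were not. A further 17 of the 1000 probe sets outside that list were called (1.7%), 10 higher in dCINs and 7 higher in MNs. These stand for 12 named genes that the list does not hold, 3 second probe sets of listed genes (Kcna1, Stat3 and Nefl) and 2 probe sets without a gene name. Their differences were modest, at 1.28 to 2.38 fold and under 2-fold in 15 of 17, whereas listed probe sets that were called reached 19.9 fold. Of the 17, 5 stayed called with the MIX arrays in the fit, 0 over all 14 dCIN and MN arrays and 12 under Cyber-T, which steadies the spread of a probe set with that of probe sets of like signal. The 5 dCIN and 5 MN arrays did not overlap at all for 12 of the 17, against 16 of 1000 probe sets outside the list (1.6%) and 48 of all 1050 (4.57%). The 17 were called on these same 10 arrays and are counted in both shares, so the lack of overlap adds no support to the calls. The median MIX array lay between the dCIN and MN means for 17 of the 17, and for 490 of all 1050 probe sets (46.7%), where the narrower gaps of most probe sets leave less room for it.

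**Figure D2:**
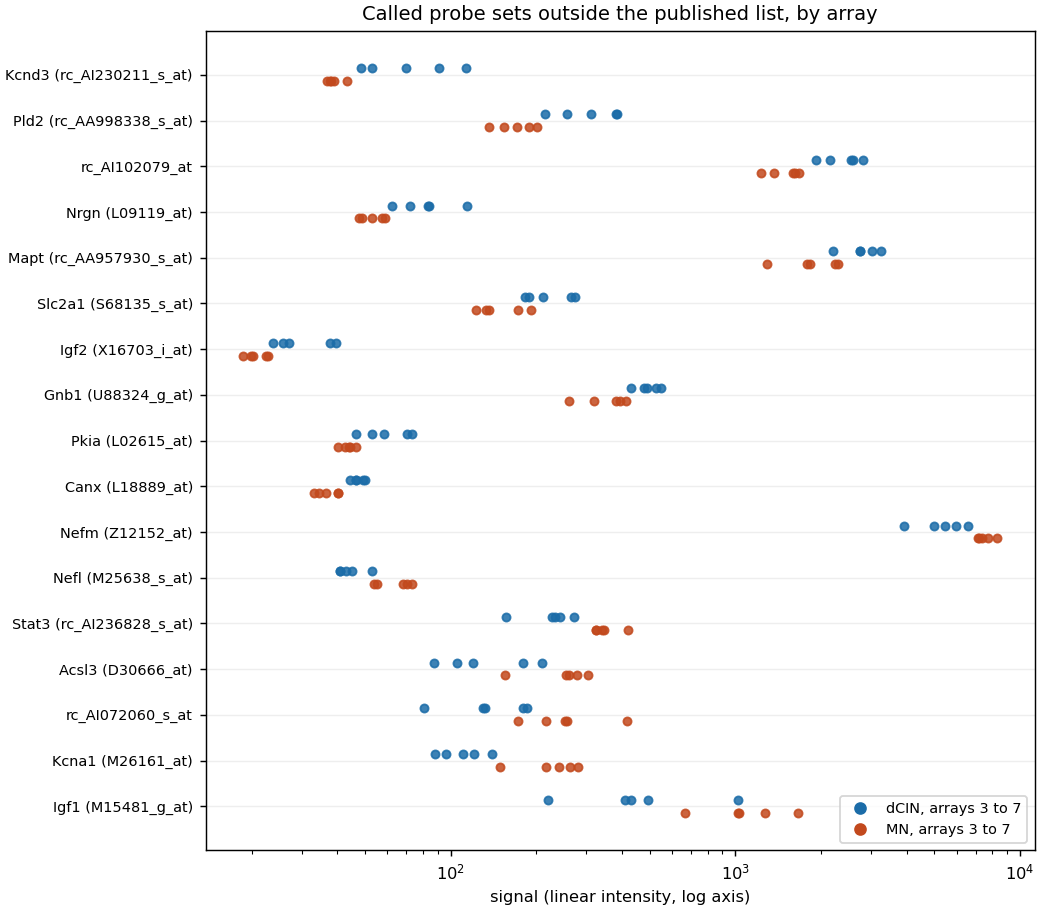
Signal (linear intensity, log axis) of the 17 called probe sets outside the published list in the 5 dCIN arrays (blue) and 5 MN arrays (red) numbered 3 to 7, ordered by the log2 difference from 0.87 for Kcnd3 at the top to -1.25 for Igf1 at the bottom. The groups do not overlap for 12 of the 17, among them Kcna1, where dCINs read 88.1 to 140 and MNs 149 to 280, and they overlap for Igf1, where dCIN array 7 lies among the MNs.

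Among genes of the axon and cytoskeleton, all 3 neurofilament subunits were higher in MNs in arrays 3 to 7, and Mapt, which encodes the microtubule protein tau, was higher in dCINs. Nefm, the medium chain and the one subunit outside the published list, read 3910, 5000, 5940, 6580 and 5440 in dCINs and 8300, 7730, 7140, 7190 and 7350 in MNs. Every MN array was brighter, by a log2 difference of -0.51 (SE 0.14, adjusted p = 0.071, 1.42-fold). In arrays 1 and 2 the mean difference ran the other way, at 5580 and 5810 in dCINs and 5660 and 3950 in MNs (0.27), and over all 14 arrays Nefm was not called (-0.29, limma adjusted p = 0.598), nor was it with the array set as a covariate (0.326) or the array number as a replicate block (0.163). The call was also lost with array medians subtracted (0.107), a trend and robust prior (0.103), the number of cells as a covariate (0.105) and under Cyber-T (0.32). The heavy chain Nefh read 718, 1670, 1940, 1520 and 1630 in dCINs and 3160, 3750, 2780, 2500 and 2750 in MNs, a difference of -1.06 (SE 0.24, adjusted p = 0.0255) with dCIN array 3 far below the other dCINs. A second and dim Nefl probe set (M25638_s_at) read 40.8 to 52.8 in dCINs and 53.9 to 73.5 in MNs, a difference of -0.52 (SE 0.12, adjusted p = 0.0361).

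Mapt (rc_AA957930_s_at) read 2750, 3250, 3030, 2750 and 2210 in dCINs and 2290, 2240, 1790, 1830 and 1290 in MNs, a difference of 0.59 (SE 0.17, adjusted p = 0.0888). Its groups overlapped only through dCIN array 7, which lay below MN arrays 3 and 4. A second Mapt probe set had 1760 ± 313 and 1660 ± 401 (mean ± SD of 5 arrays), a limma difference of 0.11 (SE 0.20, adjusted p = 0.887). With 1 array left out, the call for Nefm was kept without dCIN array 3, 5, 6 or 7 and lost without any of the other arrays (adjusted p up to 0.169), and that for Mapt was kept without dCIN array 7 or MN array 3 or 4 and lost without any of the other 7 (up to 0.205). The second Nefl probe set lost its call only without dCIN array 4 or MN array 5 (up to 0.111). Of the 12 measured genes in a list of cytoskeleton and axon genes, 5 were called higher in MNs and 1 higher in dCINs, with a median difference of -0.20, against 26 and 16 of all 644 named genes higher in dCINs and MNs (6.52% called) and a median of -0.01. The called genes were Nefl, Nefm, Nefh, Sncg and Tagln3 (a neuronal relative of the actin-binding transgelin) for MNs and Mapt for dCINs, and 4 of the 6 are in the published list. Cyber-T called 4 of the 12, without Nefm and Mapt. Among those not called, Gap43 of growing axons had a difference of 0.33, Map2 -0.21, Map1b 0.01 and Actb -0.03.

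**Figure D3:**
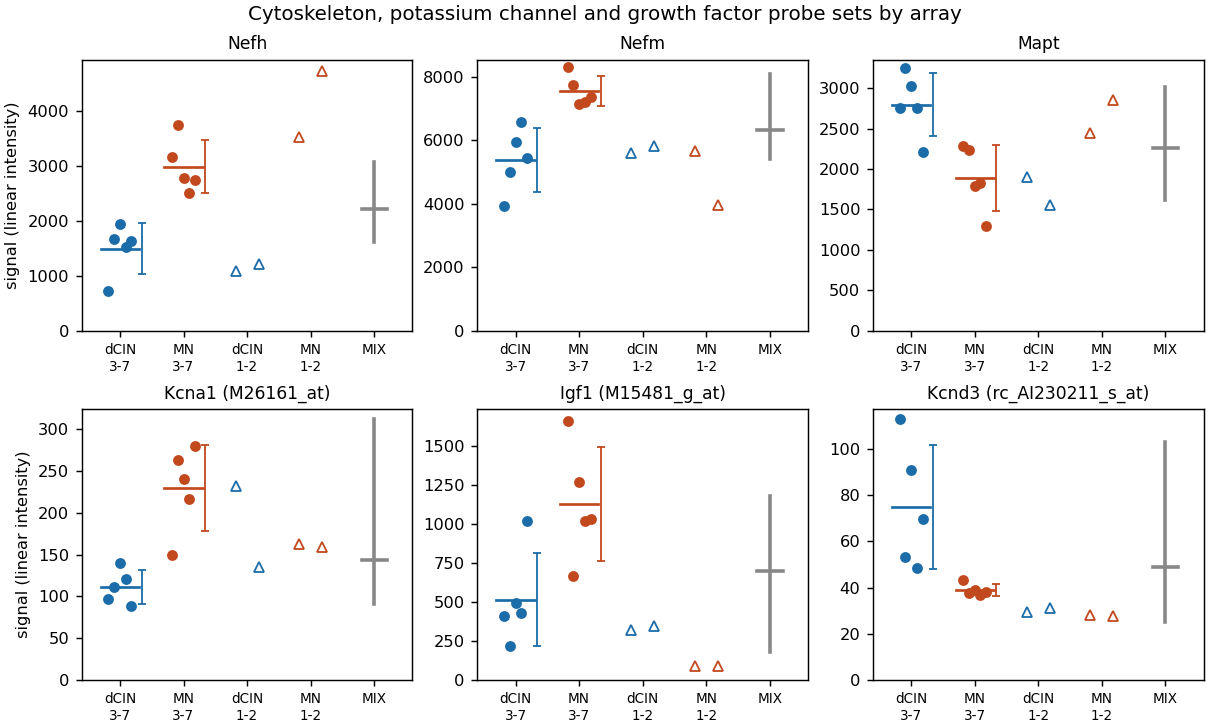
Signal (linear intensity) of 6 probe sets by array, with filled circles for arrays 3 to 7 (line: mean, bar: ± 1 SD), open triangles for arrays 1 and 2 and a grey bar for the range and median of 8 MIX arrays. In arrays 3 to 7 Nefh, Nefm, Kcna1 and Igf1 are higher in MNs and Mapt and Kcnd3 higher in dCINs. The triangles of Nefh keep that order, as do the means of those of Kcnd3, whereas the means reverse for Nefm, Mapt, Kcna1 and Igf1, the last with dCINs at 320 and 346 and MNs at 85.9 and 89.4.

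A pair of voltage-gated potassium channel genes differed in opposite directions. Kcna1 encodes Kv1.1, a low-threshold channel of axons and the initial segment. Its probe set M26161_at, outside the published list, read 96.2, 111, 140, 121 and 88.1 in dCINs and 149, 263, 241, 216 and 280 in MNs. All MN arrays lay above all dCIN arrays, MN array 3 only just so, with a log2 difference of -1.03 (SE 0.18, adjusted p = 0.00613, 2.05-fold). The listed Kcna1 probe set moved the same way by -0.70 (SE 0.13, adjusted p = 0.00946), with 52 ± 7.96 in dCINs and 83.9 ± 9.08 in MNs (mean ± SD of 5 arrays).

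Kcnd3 encodes Kv4.3, a subunit of the rapidly inactivating A-type current. Its probe set rc_AI230211_s_at read 113, 53.1, 91, 48.4 and 69.9 in dCINs and 43.3, 37.7, 39, 36.9 and 38.1 in MNs. The MN arrays were nearly equal and the dCIN arrays spread widely above them, a difference of 0.87 (SE 0.21, adjusted p = 0.0349, 1.83-fold). Other Kcnd3 probe sets gave -0.04 and 0.05, neither called. The calls for Kcna1 (M26161_at) and Kcnd3 were kept when any single array was left out, but over all 14 arrays neither was called (limma adjusted p = 0.111 and 0.365), and Kcnd3 was not called with the MIX arrays in the fit (0.181). Of 39 measured potassium channel genes, 1 was called in each direction by its brightest probe set, Kcna1 for MNs and the listed Kcnc1 (Kv3.1, a channel of fast-firing neurons) for dCINs, against 6.52% of all 644 named genes, and the median was -0.01. Of 20 measured sodium and calcium channel genes 0 were called by limma and 0 by Cyber-T, and 2 had an unadjusted p under 0.05 (Scn9a at 0.0297 and Cacna1a at 0.0365).

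Among genes for growth factors and their signalling, Igf1, Igfbp5 and Stat3 were higher in MNs and a probe set of Igf2 was higher in dCINs. Igf1, an insulin-like growth factor that acts on MNs and their axons, read 411, 220, 494, 430 and 1020 in dCINs and 1660, 668, 1270, 1020 and 1030 in MNs on the probe set M15481_g_at. The groups overlapped through dCIN array 7, and the log2 difference was -1.25 (SE 0.35, adjusted p = 0.0868, 2.38-fold), the largest among probe sets outside the published list. Its other 3 probe sets gave -0.17, 0.10 and -0.02, at mean signals of 16.3 to 54.9, and none was called.

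Without dCIN array 7 the Igf1 difference widened to -1.54 (adjusted p = 0.0131). The call was also kept without MN array 4 and lost without any of the other 8 arrays (adjusted p up to 0.196). Igfbp5, which binds these growth factors and is in the published list, was higher in MNs by -0.82 (SE 0.23, adjusted p = 0.0888), and that call was kept in 2 of the 10 fits without 1 array. Igf2 was called higher in dCINs on a dim probe set (X16703_i_at), which read 23.8, 27.1, 39.6, 25.8 and 37.6 in dCINs and 18.7, 20.3, 19.9, 22.8 and 22.4 in MNs (0.54, SE 0.15, adjusted p = 0.0891). Its other 4 probe sets gave -0.12, -0.08, 0.25 and -0.54 with none called, so the Igf2 probe sets did not give 1 direction, and the call was kept only without dCIN array 3 or 6 (adjusted p up to 0.205 otherwise).

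Stat3, a transcription factor activated by neurotrophic cytokines, was higher in MNs on both of its called probe sets. The one outside the list (rc_AI236828_s_at) read 232, 272, 243, 227 and 156 in dCINs and 325, 347, 325, 340 and 419 in MNs without overlap (-0.65, SE 0.15, adjusted p = 0.0269), and its call was kept when any single array was left out. It was lost with the MIX arrays in the fit (adjusted p = 0.154), over all 14 arrays (0.385), with a trend and robust prior (0.102) and under Cyber-T (0.167). The listed one gave -0.81 (SE 0.17, adjusted p = 0.0175). Of 26 measured genes for growth factors and their receptors, 0 were called higher in dCINs and 3 higher in MNs (Stat3, Igf1 and Igfbp5), with a median of -0.12, against 26 and 16 of all 644 named genes. Each gene stands there by its brightest probe set. Ngfr, the p75 neurotrophin receptor, was called on its listed probe set (-2.09, adjusted p = 0.000643) and not on the brighter one (-0.15, adjusted p = 0.764). Igf1r, the receptor for Igf1, had a difference of -0.17 and was not called.

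Among the called genes outside the published list with a part in intracellular signalling, Pld2, Nrgn, Gnb1 and Pkia were higher in dCINs, each by less than 2-fold. They were set together after their values were seen and form no tested group. Pld2, phospholipase D2, which makes phosphatidic acid at membranes, read 384, 257, 380, 215 and 312 in dCINs and 201, 189, 171, 154 and 136 in MNs. Every dCIN array was above every MN array, and the difference was 0.84 (SE 0.18, adjusted p = 0.0175, 1.79-fold). The other Pld2 probe set, at a mean signal of 38.9 in dCINs and 38.3 in MNs, gave 0.00.

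Nrgn, neurogranin, a postsynaptic protein that binds calmodulin, read 83.8, 62.2, 114, 83.1 and 72 in dCINs and 58.9, 48.7, 52.9, 47.8 and 57.3 in MNs (0.62, SE 0.15, adjusted p = 0.0406). A brighter Nrgn probe set differed by more, 589 ± 238 against 301 ± 82.5 (mean ± SD of 5 arrays; log2 difference 0.91, SE 0.27), and fell just outside the threshold at a limma adjusted p of 0.102. The call of the first was lost only without MN array 6 (adjusted p = 0.128). Gnb1, a beta subunit of heterotrimeric G proteins, read 549, 529, 478, 488 and 431 in dCINs and 382, 412, 320, 260 and 393 in MNs without overlap (0.50, SE 0.14, adjusted p = 0.0824). Of its other 4 probe sets none was called, at 0.18, -0.10, 0.58 and 0.36.

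Pkia, an inhibitor of the cyclic AMP dependent kinase, was the called probe set nearest to the threshold (adjusted p = 0.0967). It read 70.2, 58.3, 73.5, 52.8 and 46.6 in dCINs and 42.5, 46.6, 40.3, 44.2 and 44 in MNs (0.45, SE 0.13), so the lowest dCIN and the highest MN array were level after rounding. The Gnb1 call was kept without dCIN array 7 or MN array 3, 4 or 7 and lost without any of the other 6 arrays (adjusted p up to 0.198), and the Pkia call was kept only without dCIN array 7 (up to 0.237 otherwise). Of 13 settings that left out no single array, the Gnb1 call was kept in 6. It was lost, among others, with a trend and robust prior (limma adjusted p = 0.257) and under Cyber-T (0.385). The listed kinase Prkcb, protein kinase C beta, was higher in dCINs by 1.09 (SE 0.23, adjusted p = 0.0182). It was the only 1 of 17 measured genes for calcium signalling and kinases to be called, and the list's median was 0.03, so the list as a whole had no more calls than the 6.52% of all named genes.

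A last set of 3 named genes concerns metabolism and protein folding. Acsl3, which activates long-chain fatty acids, read 105, 87.5, 120, 180 and 209 in dCINs and 261, 155, 303, 255 and 279 in MNs, a difference of -0.88 (SE 0.25, adjusted p = 0.0906, 1.84-fold). The overlap came from MN array 4 alone, and without it the call was kept, as it was without dCIN array 6 or 7 but not without any of the other arrays (adjusted p up to 0.212). Slc2a1, the glucose transporter GLUT1, read 265, 182, 189, 212 and 273 in dCINs and 173, 123, 192, 137 and 133 in MNs (0.56, SE 0.16, adjusted p = 0.0906), with MN array 5 above dCIN arrays 4 and 5. Slc2a1 is abundant in the endothelium of brain vessels and was the only 1 of 8 listed vessel markers analysed here, so the part of vessel RNA in its difference was not tested.

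Canx, calnexin, a chaperone of the endoplasmic reticulum, was dim and tight, at 44.2, 49.9, 49.2, 46.7 and 46.6 in dCINs and 40.4, 40.2, 34.5, 36.5 and 33.2 in MNs. The groups did not overlap, and the difference of 0.36 (SE 0.10, adjusted p = 0.0731, 1.28-fold) was the smallest of the 17. The Slc2a1 call was kept without dCIN array 4 or 5 or MN array 3 or 5 only, and the Canx call without dCIN array 3 or 7 or MN array 3 or 4 only (adjusted p up to 0.215 and 0.198). Of 13 settings that left out no single array, the Slc2a1 call was kept in 3. It was lost, among others, with quantile normalization (limma adjusted p = 0.201) and under Cyber-T (0.241). The probe sets without a gene name were rc_AI102079_at, higher in dCINs at 1920 to 2800 against 1230 to 1670 (0.68, SE 0.13, adjusted p = 0.013), and rc_AI072060_s_at, higher in MNs at 173 to 417 against 81 to 185 (-0.89, SE 0.26, adjusted p = 0.0918). The first was without overlap and kept its call when any single array was left out, but not with the MIX arrays in the fit (adjusted p = 0.157) or over all 14 arrays (0.206). With 1 array left out, the second kept its call only without dCIN array 6 or 7 or MN array 4 (up to 0.207).

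Besides the markers, 7 of the called genes in the published list are given as examples of wide differences. The list was chosen on arrays that include these 10. Higher in MNs were Sncg, which read 106 to 320 in dCINs and 664 to 1760 in MNs (-2.56, SE 0.33), Nrp1, a receptor for repellent guidance cues, at 7.03 to 35.8 and 36.7 to 172 (-2.41, SE 0.49), Calcb, a calcitonin gene-related peptide made by MNs, at 62.3 to 152 and 357 to 471 (-2.27, SE 0.21), and Ngfr at 89.2 to 141 and 253 to 834 (-2.09, SE 0.26). In arrays 1 and 2 Nrp1 read 22.9 and 14.9 in dCINs and 25.3 and 22.9 in MNs, a difference of only -0.38. Higher in dCINs were Hcrtr2, at 127 to 213 and 13.4 to 77.1 (2.72, SE 0.43), the vesicle protein gene Sv2a at 372 to 875 and 58.7 to 247 (2.21, SE 0.37), and the adhesion protein gene Ntm at 177 to 283 and 37.5 to 77.4 (1.94, SE 0.22). The dCIN and MN arrays of these 7 genes did not overlap, and Nrp1 had the narrowest margin. The same holds for 32 of the 40 listed probe sets that were called, against 48 of all 1050 (4.57%). The 40 were called on these same 10 arrays, so the lack of overlap adds no support to the calls.

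The 10 listed probe sets that were not called in arrays 3 to 7 included Nrxn3, Tgfb3, Kcna4, Glra1, Atp2a2, Pcp4, Gria2, Cnr1 and Msmo1, with limma adjusted p-values from 0.193 to 0.434. All 10 had the same direction in arrays 1 and 2. Pcp4, a calmodulin-binding peptide, read 1350, 1100, 1320, 749 and 1700 in dCINs and 912, 403, 1190, 714 and 709 in MNs, a difference of 0.70 (SE 0.28, adjusted p = 0.301), where arrays 1 and 2 had 1750 and 1150 in dCINs and 46.5 and 46.5 in MNs, a difference of 4.93. Cnr1, the cannabinoid receptor, read 125 to 177 in dCINs and 34 to 247 in MNs (0.85, SE 0.40, adjusted p = 0.408), with MN array 3 above all dCIN arrays, and its difference in arrays 1 and 2 was 3.52.

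The 4 arrays numbered 1 and 2 took no part in the calls and are set beside them without a test. Of the 57 called probe sets, 46 (80.7%) had the same direction there, against 612 of all 1050 (58.3%). Among the 40 listed ones the count was 39 (97.5%), with Sv2a the exception at 2.21 in arrays 3 to 7 and -0.09 in arrays 1 and 2. Among the 17 outside the list it was 7 (41.2%), against 563 of the 1000 outside it (56.3%). The list itself was drawn up with arrays 1 and 2 included, and this can favour agreement inside it and disagreement outside it. The 7 were Pld2 (1.40 in arrays 1 and 2), Slc2a1 (1.43), Kcnd3 (0.11), Nrgn (0.03), Stat3 (-1.01), the second Nefl probe set (-0.00) and rc_AI072060_s_at (-0.02), of which only Pld2, Slc2a1 and Stat3 had a difference there of more than 1 on the log2 scale.

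**Figure D4:**
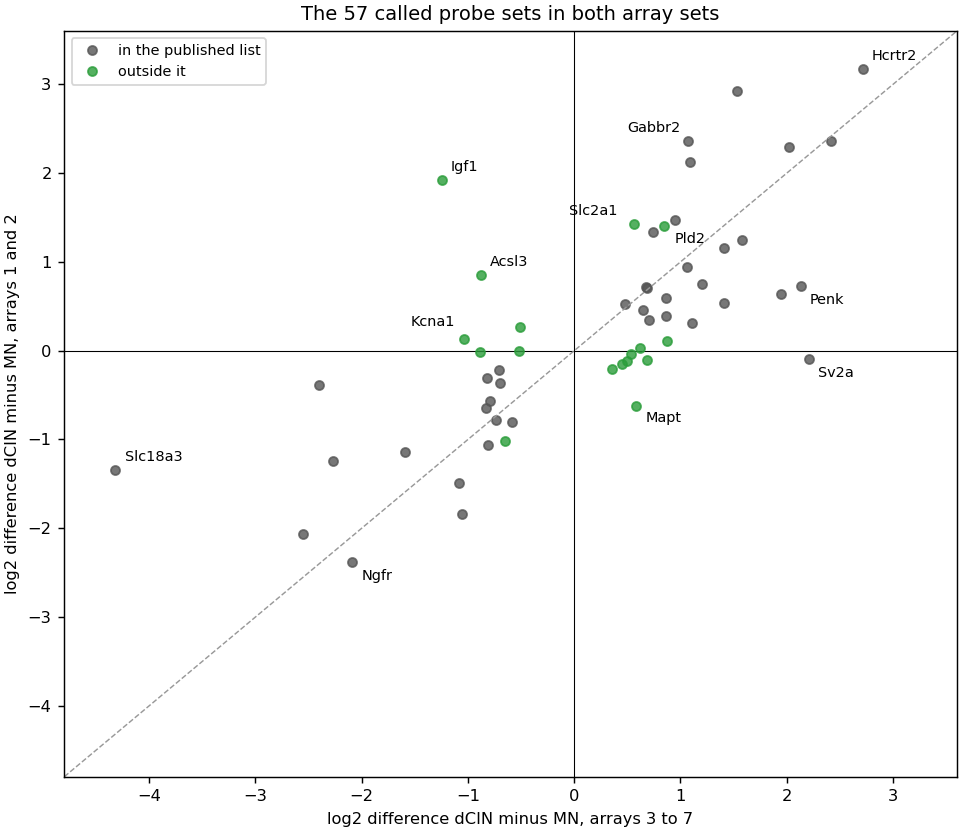
Log2 difference (dCIN minus MN) of the 57 called probe sets in arrays 3 to 7 (horizontal axis) and in arrays 1 and 2 (vertical axis), grey for probe sets of the published list and green for the 17 outside it, with the dashed line marking equal differences. Of the grey points 39 of 40 keep their sign, and of the green points 7 of 17, with Igf1 at -1.25 and 1.93, Acsl3 at -0.88 and 0.86 and Mapt at 0.59 and -0.62 furthest into the quadrants of opposite sign.

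The difference between the array sets was tested as an interaction in limma over all 14 arrays. Arrays 1 and 2 were set apart because their values in these data deviated together, and the 57 probe sets were chosen for their difference in arrays 3 to 7, so the interaction p-values are not independent of either choice and describe this split. It was called for 103 of 1050 probe sets (9.81%), with the signed dCIN minus MN difference higher in arrays 1 and 2 for 41 and lower for 62. This count fell to 44 without dCIN array 2 and to 30 without MN array 2. It was called for 10 of the 57 probe sets, 4 listed and 6 outside the list. Outside the list these were Igf1, whose difference was 3.17 higher in arrays 1 and 2 than in arrays 3 to 7 (SE 0.60, adjusted p = 0.00874), Acsl3 (1.74 higher, adjusted p = 0.0384), Kcna1 (1.17, adjusted p = 0.0695), Mapt (-1.20, adjusted p = 0.0314), Canx (-0.56, adjusted p = 0.0719) and rc_AI102079_at (-0.79, adjusted p = 0.0688). Among the listed ones they were Penk (-1.40, adjusted p = 0.0216), Sv2a (-2.30, adjusted p = 0.0596), Ntm (-1.30, adjusted p = 0.0752) and Gabbr2, a GABA-B receptor subunit (1.29, adjusted p = 0.0561).

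Some probe sets that were level between the cell types in arrays 3 to 7 differed widely in arrays 1 and 2. Hspe1, a mitochondrial chaperone, had differences of 0.08 and 0.14 on its probe sets in arrays 3 to 7 and of 3.18 and 3.54 in arrays 1 and 2 (interaction adjusted p = 0.000405 and 0.000487). Atp1b1, a sodium pump subunit, went from -0.07 to 3.13 on rc_AI230614_s_at (adjusted p = 0.00167), whereas its brighter probe set had 0.37 and 0.21. Dynll1, a dynein light chain, went from -0.09 to 2.01, and Syp, the vesicle protein synaptophysin, from 0.19 to -2.47. The ratio of the 3' to the 5' beta-actin probe set was 6.73 to 10.7 in arrays 3 to 7 and 3.02 to 4 in arrays 1 and 2, beside the Gapdh ratios given above. The part of RNA quality, cell number or amplification in these differences was not tested.

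The remaining gene lists are counted against all 644 named genes, of which 26 were called higher in dCINs and 16 higher in MNs (6.52%). Several of the shares below lie near that background and are no result about their list. Of 23 measured neuropeptide and cannabinoid receptor genes 3 were called, all higher in dCINs (Hcrtr2, Hcrtr1 and Sstr2), and of 13 neuropeptide precursor genes 2 were higher in dCINs (Penk and Npy) and 1 in MNs (Calcb). Of 4 metabotropic glutamate receptor genes 1 was higher in dCINs (Grm4), and of 4 genes for handling GABA and glycine 1 (Slc32a1). Of 19 genes for axon guidance and adhesion 3 were higher in dCINs (Ntm, Nptxr and Cx3cl1) and 1 in MNs (Nrp1). Of 26 genes for synaptic vesicles and release Sv2a was higher in dCINs, and Syn2 and Syt2 were higher in MNs. Single calls were made among 5 genes for glutamate transport (Slc1a6), 15 for ionotropic glutamate receptors (Grik1) and 16 for GABA receptors (Gabbr2), all higher in dCINs, and among 11 serotonin receptor genes Htr5b was higher in dCINs and Htr3a in MNs. All these called genes are in the published list, so their counts are not independent of how it was chosen.

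In further lists, 0 of 20 acetylcholine receptor genes, 0 of 12 adrenergic and dopamine receptor genes, 0 of 10 ion pump genes, 0 of 9 immediate early and stress genes and 0 of 2 glycine receptor genes were called by limma on their brightest probe set. At a background of 6.52%, a count of 0 in lists of this length does not set them apart. An unadjusted p under 0.05 was reached by 0, 0, 2, 0 and 1 of them, and Cyber-T called 0 in each of these lists. The ion pump genes were Atp1b1 and Atp2a2, and the glycine receptor gene was Glra2, a subunit of immature neurons, at 248 ± 76.4 in dCINs and 445 ± 196 in MNs (mean ± SD of 5 arrays; log2 difference -0.80, SE 0.27, adjusted p = 0.191). A total of 6 genes on the lists were called by a probe set other than their brightest: Adra1d, Kcnd3, Hspb1, Ngfr, Igf2 and Nptx2.

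**Figure D5:**
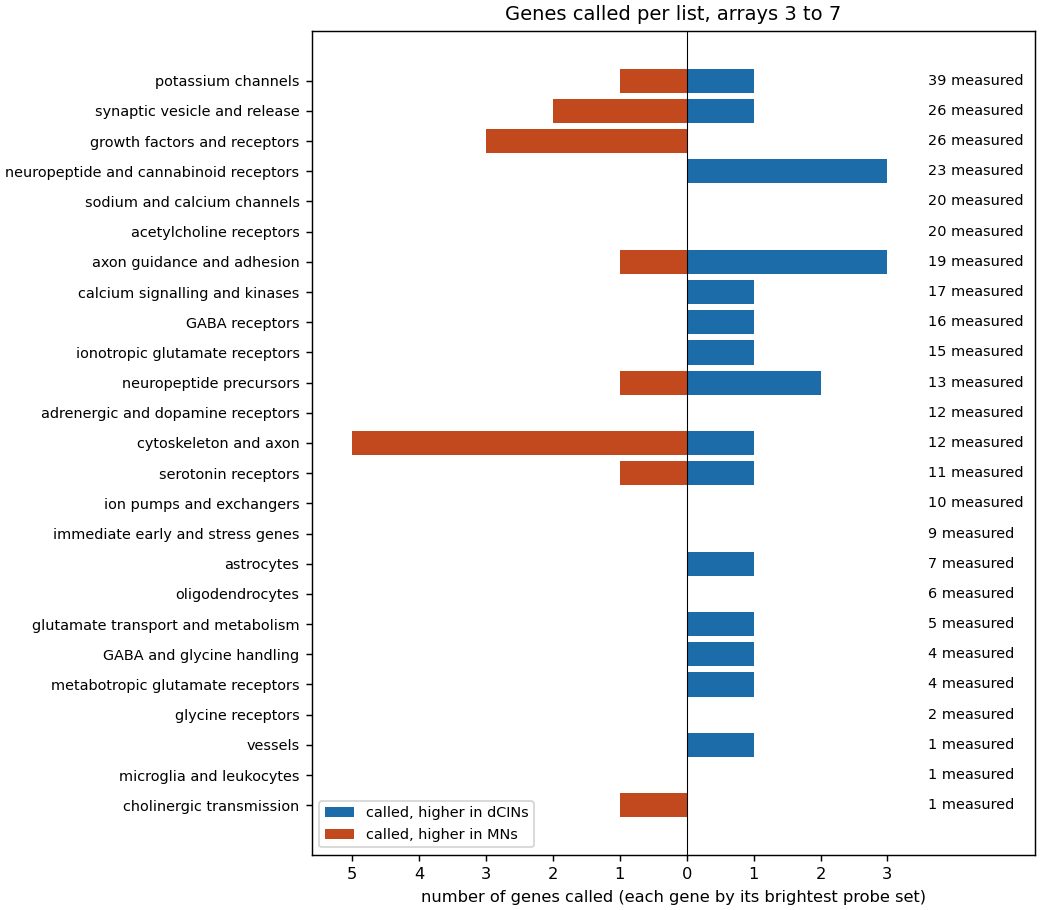
Number of genes called in each of the 25 lists with a measured gene, to the right for genes higher in dCINs and to the left for genes higher in MNs, with each gene taken by its brightest probe set and the number of measured genes at the right. Cytoskeleton and axon genes have the most calls for MNs (5 of 12), and neuropeptide and cannabinoid receptors (3 of 23) and axon guidance and adhesion genes (3 of 19) the most for dCINs, while sodium and calcium channels (20 measured) have none.

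Markers of other cell types were measured in part. Of 14 astrocyte genes 7 were counted here, and their summed signal was 5630 to 8570 in dCINs, 4240 to 6340 in MNs and 3580 to 9340 in MIX arrays. Gfap, the classical astrocyte marker, is not among the 7, because its probe sets were left without a gene name here. The paper found them on this chip, very dim and unchanged between dCINs and MNs. Sums in this paragraph add probe sets that are not on a common scale, so they do not measure an amount of glial RNA. Apoe makes up most of the astrocyte sum. By limma, Apoe, a lipid carrier, was the only 1 called, higher in dCINs at 4240, 6420, 6520, 5630 and 6190 against 3820, 3340, 3600, 2570 and 4880 in MNs (0.69, SE 0.17, adjusted p = 0.0504). That call was kept in 5 of 10 fits without 1 array. It was lost with the MIX arrays in the fit (limma adjusted p = 0.172) and under Cyber-T (0.117). A dimmer Apoe probe set was also called by limma (0.86, SE 0.24, adjusted p = 0.0888). S100b had 0.44 (SE 0.19, adjusted p = 0.344), and Vim, the intermediate filament of immature glia, had -1.02 (SE 0.31, adjusted p = 0.119), with 295 ± 145 in dCINs and 566 ± 175 in MNs (mean ± SD of 5 arrays). Cyber-T called 1 of the 7 astrocyte genes by its brightest probe set, and that was Vim, higher in MNs. Of 6 measured oligodendrocyte genes 0 were called by limma and 0 by Cyber-T, and 2 had an unadjusted p under 0.05 (Mog and Pdgfra), with sums of 631 to 1010 in dCINs and 569 to 839 in MNs and Mbp, myelin basic protein, at 36.5 ± 1.85 and 36 ± 5.27. The only measured microglial marker, Itgam, read 14.1 to 17.8 in dCINs and 15.9 to 19.6 in MNs, and Schwann cell markers were not analysed here. The part of glial RNA in the differences between dCINs and MNs was not tested.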

How the data were processed

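The deposited table holds 1 intensity per probe set and array for 22 arrays, on a linear scale. The authors made these values from the perfect match probes by global background subtraction, quantile linear transformation, quantile projection normalization, Li-Wong summaries (affy package, per the labels) and subtraction of the lowest of all values, a step that widens the ratios of dim probe sets. Normalization over all 22 arrays means that arrays 1 and 2 and the MIX arrays took part in scaling the others. Of 1050 probe sets, 961 carried 1 gene symbol, 7 several, 3 were named from their control probe set names and 79 are left unnamed. Probe sets with a # in their ID, such as M12492mRNA#1_at, were not matched to the annotation and are unnamed for that reason.

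The values were log2-transformed and compared over 5 dCIN and 5 MN arrays by limma (version 3.58.1, under R 4.3.3), using lmFit and eBayes without a trend or a robust prior. The array set by cell type interaction used all 14. P-values were adjusted over 1050 probe sets. Code was tested on simulated data. The number of arrays limits the precision. Each array is another animal.

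The members, the array selection, the 26 gene lists (25 with a measured gene, each gene by the probe set of highest mean log2 signal) and the tests were chosen with earlier results of these data known. Named are the markers, all called probe sets outside the published list, the 10 listed ones with the largest differences, the listed ones not called, the 10 with the smallest interaction p, up to 3 genes per list, their other probe sets and controls. Alternatives were MIX arrays in the fit, all 14 arrays with and without the array set as a covariate, the array number as a block, an offset of 32, a mean log2 of at least 6, 1-symbol probe sets, quantile normalization, array medians, trend and robust prior, array weights, cell number, Cyber-T (prior weight of 10), other thresholds and leaving out each array. Promoters came from RefSeq (GRCr8). Probe-level data and RT-PCR values were not analysed here, and some genes, called ones and list members included, are not reported here and stand in no list count.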

Additional observations from a re-analysis of the deposited data

Results flagged for a closer look

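Of 148 groups of 5 arrays examined over 74 probe sets, 6 held an array whose gap to its nearest neighbour took up an unusual share of the group's log2 range, and chance alone flags about 1 group in 20. MN array 4 stood below the other MNs for Acsl3 (share 0.745; 155 against 255 to 303), MN array 7 for Grm4 (0.811; 104 against 238 to 288) and MN array 6 for Sstr2 (0.777; 43.2 against 51.8 to 54.5). Among dCINs, array 3 stood below the others for Nefh (0.756) and array 6 for Slc1a6, a glutamate transporter (0.794; 138 against 282 to 339). MN array 7 stood above the other MNs for the second Stat3 probe set (0.749; 419 against 325 to 347).

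The dCIN minus MN difference passed the limma interaction between arrays 3 to 7 and arrays 1 and 2, a split chosen on these data, for the following probe sets, given as the difference in arrays 1 and 2 minus that in arrays 3 to 7. It was larger in arrays 1 and 2 for Pcp4 (4.23), the Hspe1 probe sets (3.40 and 3.11), Atp1b1 (3.20), Igf1 (3.17), Vim (2.69), Cnr1 (2.67), the unnamed M12492mRNA#1_at (2.12), Dynll1 (2.10), the sodium channel gene Scn7a (1.97), Acsl3 (1.74), Gabbr2 (1.29) and Kcna1 (1.17). It was lower there for Syp (-2.67), Sv2a (-2.30), a Gnb1 probe set outside the calls (-1.84), the cytolinker gene Plec (-1.61), the brain matrix gene Bcan (-1.43), Penk (-1.40), Ntm (-1.30), Mapt (-1.20), the myelin gene Mag (-0.88), rc_AI102079_at (-0.79) and Canx (-0.56). Among the 57 called probe sets, the sign of the difference itself turned between the array sets for 11. These were Igf1, Acsl3, Mapt, Canx, Kcna1, Sv2a and rc_AI102079_at of those just given, and Nefm (-0.51 to 0.27), Gnb1 (0.50 to -0.11), Pkia (0.45 to -0.15) and Igf2 (0.54 to -0.04), whose interaction was not called, and for Kcna1, Sv2a and rc_AI102079_at the value in arrays 1 and 2 was close to 0 (0.13, -0.09 and -0.10).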

How the results depend on the processing

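The count of 57 called probe sets moved to 33 with the MIX arrays in the fit and to 88 with array weights, where 56 of the 57 were shared, and it was 39 to 66 without 1 array. The other settings gave 40 to 83. The count of 17 outside the published list was 5 with the MIX arrays (5 of them among the 17), 1 over all 14 arrays (0 among the 17), 33 with the array set as a covariate (8 among the 17), 44 with array weights (16 among the 17), 7 at an adjusted p under 0.05, 32 at 0.2, and 6 to 25 without 1 array. Of the 17, 5 kept their call without any single array, as did 31 of the listed ones. Not all 40 listed calls were among the 74 probe sets followed here, so the 31 is not a share of 40. The interaction count of 103 was 30 to 147 without 1 array. Over all 14 arrays, without and with the covariate, second probe sets that were not called changed sign, Mapt to -0.03 in both and Gnb1 to -0.00 in both, as Mapt did without MN array 4 (-0.07 to 0.21 without 1 array). No other difference among 74 probe sets changed sign under any alternative run. The deviations of same-numbered dCIN and MN arrays 3 to 7 had correlations of -0.203, 0.418, 0.0272, -0.238 and 0.00871. Only the arrays numbered 4 were each other's best match. These correlations cannot show whether same-numbered animals were handled together. With the replicate block, 55 probe sets were called, 47 of them shared, and 19 outside the list, 11 of them shared. The quantile and median scalings gave 60 and 49 calls, with 56.7% and 59.2% higher in dCINs against 59.6%, and the median of all probe sets stayed at -0.01. The cause of the moved counts was not tested. With 5 arrays a group, small differences may be missed.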

Other observations

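The probe sets nearest to the threshold form a mixed group. Just inside it stood Htr3a, an ion channel opened by serotonin (adjusted p = 0.093 in limma), and Pkia (0.0967). Just outside it stood the brighter Nrgn probe set (0.102), the ribosomal scaffold gene Rack1 (0.103) and Vim (0.119).

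In the MIX arrays, which hold cells picked at random in the ventral horn, Igf1 ran from 178 to 1180 with a median of 701, Kcna1 (M26161_at) from 91.1 to 313 with a median of 144, and Kcnd3 from 25 to 103 with a median of 48.9. The MIX ranges covered most of both groups for these genes. Nefm ran from 5400 to 8080 with a median of 6320 and Mapt from 1620 to 3010 with a median of 2260. Genes of the calcium and kinase list that had an unadjusted p under 0.05 without a call included Camkk1, a kinase upstream of calcium/calmodulin kinases, at 233 ± 40.3 in dCINs and 152 ± 58.5 in MNs (mean ± SD of 5 arrays; limma adjusted p = 0.185), and Map2k1, a kinase of the ERK pathway, at 145 ± 31.2 and 201 ± 40.1 (limma adjusted p = 0.235).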
